A study of Mus musculus with 9 samples.

Results

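The undifferentiated parental HC11 cultures described here are the 3 unedited cultures of a mouse RNA-sequencing series of 9 cultures, taken by their titles and their labelled *WT* genotype. HC11 is an epithelial line from the mammary gland of a BALB/c mouse, used as a culture model of the differentiation that leads to milk production. The series asked what loss of *Vangl2*, a gene of planar cell polarity, does to such cells, and its other 6 cultures belong to edited lines that are not compared here. All 3 cultures carried unedited *Vangl2* and grew in RPMI-1640 with 10% fetal bovine serum, 5 µg/mL insulin and 10 ng/mL epidermal growth factor (EGF), with no lactogenic hormone mix, to near confluence. The study describes HC11 as a mixed population. Poly-A RNA was sequenced, and the authors' count table holds 55228 genes. The column totals were 20030410, 25505223 and 20944890 counts in cultures 1, 2 and 3. A figure legend of the study that covers the sequencing among other panels gives 3 biological replicates, and its methods speak of newly thawed cells at low passage. Neither says whether these 3 samples were separate thaws or passages, so part of their spread may be technical.

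The mammary epithelium has a luminal layer, which lines the duct and makes milk, and a basal layer, which rests on the basement membrane and in the tissue holds the contractile myoepithelial cells. Luminal cells are usually recognized by keratins 8, 18 and 19 with the factors GATA3, FOXA1 and ELF5, and basal cells by keratins 5 and 14 with p63. Prolactin, glucocorticoid and insulin together drive milk protein genes through the receptor PRLR and the transcription factor STAT5.

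Levels are given as CPM, the usual scale on which each count is divided by its column total, and levels of single genes are compared as CPM per kilobase of annotated exon (CPM per kb). Ranks and summed levels of lists are in CPM, which favors long genes. Where ranges of 2 genes are said to overlap, the order within each culture may still be the same. A gene was called expressed at 1 CPM or more in each of the 3 cultures, which held for 11810 of 55228 genes (21.4%). A gene was called at or under the floor at 3 counts or fewer in each culture, which held for 37816 genes (68.5%). The floor of 3 counts was worth 0.150, 0.118 and 0.143 CPM, which covers counting error only. Among 21706 protein-coding genes, 10841 were expressed (49.9%) and 8744 were at or under the floor (40.3%). The gene lists below were drawn up from genes with known roles in mammary or epithelial cells. A higher share than this background therefore describes the choice of lists as much as the cells. A list whose share lies near 49.9% is not set apart from protein-coding genes by its count. Over all 701 list genes, 466 were expressed and 162 were at or under the floor. Without culture 1 these numbers were 11933 genes expressed in the table and 469 on the lists. The median level was 0 CPM over all genes, 1.23 over protein-coding genes and 17.4 over the list genes.

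Culture 1 stood apart from cultures 2 and 3 in RNAs that poly-A selection normally removes. *CT010467.1*, annotated as a ribosomal RNA, had 3058, 294 and 337 CPM in cultures 1, 2 and 3, and *Rn7sk*, a small nuclear RNA without a poly-A tail, had 66.9, 1.22 and 1.29 CPM. *Rmrp*, the RNA of an RNA-processing enzyme, had 34.4, 0.274 and 0.334 CPM. All 3 were highest in culture 1 and close together in the other cultures. The same held for *Lars2*, the mitochondrial leucyl-tRNA synthetase gene, with 660.3, 99.1 and 104 CPM, and for the noncoding *Gm26917*, with 1673, 479.7 and 502 CPM. Together the 8 genes whose highest culture was over 2 times the lowest, at a mean of 10 CPM or more, which also include *Gm23935*, *Gm24187* and *Gm1821*, took 0.597%, 0.0932% and 0.100% of the counts. Replication-dependent histone genes, most of whose mRNAs also lack a poly-A tail, summed to 139, 46.0 and 55.6 CPM. The part of RNA quality or poly-A selection in the values of other genes was not tested.

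Outside these RNAs the cultures lay close together. Of 9142 genes with a mean of 10 CPM or more, the median ratio of the highest to the lowest culture was 1.10, and 93.2% of the genes had a highest culture less than 25% above the lowest. The ratio passed 1.5 in 50 genes, and in 48 of these culture 1 was the culture farthest from the other 2. Without culture 1 the ratio passed 1.5 in 2 genes, and without cultures 2 or 3 in 27 and 45. The biological coefficient of variation, edgeR's common estimate of the spread beyond counting error, was 0.0696 over the 3 cultures and 0.0378 without culture 1. Between cultures 2 and 3 the chi-square of the counts was 3.38 per degree of freedom, above the 1 that sampling alone would give, so no pair looked like 1 library deposited again. Next in spread after the 8 genes came the pseudogene *Gm17082* with 20.9, 23.9 and 12.2 CPM and *Fgfbp1*, a carrier of fibroblast growth factors, with 21.2, 40.3 and 36.5 CPM. *Fgfbp1* was lowest in culture 1, while *Gm17082* was lowest in culture 3.

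**Figure D1:**
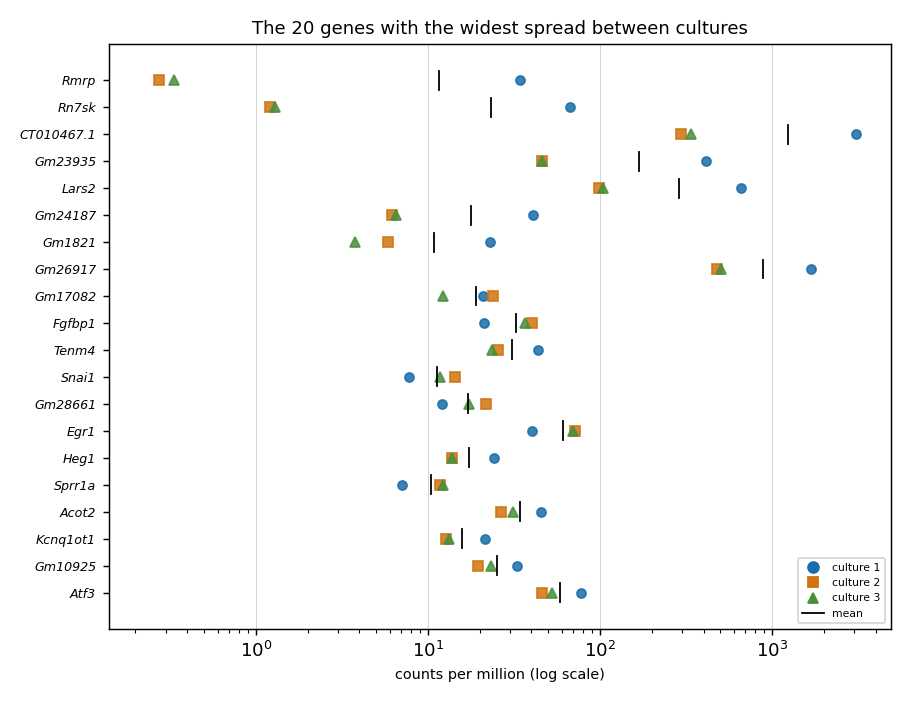
CPM of each parental culture (x axis, log scale) for the 20 genes with the largest ratio of highest to lowest culture at a mean of 10 CPM or more, where each mark is 1 culture and the bar is the mean of 3. For the 8 genes at the top culture 1 lies over 2 times above the lowest culture, as for *Rn7sk* at 66.9, 1.22 and 1.29 CPM.

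Genes were ranked by mean CPM. *Eef2* and *Eef1a1*, the elongation factors of translation, ranked 1 and 3 with 3121 ± 76.6 and 2970.0 ± 164 CPM (SD, n = 3). Fibronectin, *Fn1*, a matrix glycoprotein, ranked 2 with 3386, 3041 and 2858 CPM in cultures 1, 2 and 3. The giant scaffold gene *Ahnak*, the chaperone *Hsp90ab1*, the basal keratin *Krt5*, the hemidesmosome integrin *Itgb4* and *Igfbp5*, a binding protein of insulin-like growth factors, took ranks 4 to 8. They were followed by *Pkm* of glycolysis and by *Xist*, the noncoding RNA of X inactivation. The rest of the 20 highest genes outside the ribosomal protein genes were *Pabpc1*, *Actb*, *Ncl*, *Flna*, *Spp1*, *H3f3b*, *Eif4g2*, *Top2a*, *Krt14* and *Arhgdia*. The counts were spread widely, since the 10 highest genes took 2.42% of them and the 100 highest 11.7 ± 0.325% (SD, n = 3). The 85 cytosolic ribosomal protein genes together took 2.73 ± 0.154%, led by *Rpl4*, *Rpl8* and *Rpl7*. All 37 genes of the mitochondrial genome were listed at 0 in the 3 cultures, so their expression is not analysed here.

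Per kilobase of exon the order changed. *Eef1a1* led the protein-coding genes with 1191 ± 65.8 CPM per kb, followed by *Spp1*, the secreted phosphoprotein osteopontin, with 1101, 943 and 1033 CPM per kb in cultures 1, 2 and 3. The ranges of both over the 3 cultures did not overlap, and that of *Spp1* overlapped the range of *Krt5*. Among reference genes, *Actb* had 666 ± 12.6, *Hprt* 125 ± 6.35, *Gapdh* 117 ± 5.19 and *Tbp* 3.36 ± 0.280 CPM per kb. *Eef1a1* shares 40.4% and *Gapdh* 25.1% of its 50-base transcript windows with other annotated genes, so both levels are uncertain, as are those of *Tbp*, *Spp1*, *Krt5*, *Rpl4* and *Rpl7*, which each share over 10%. The exon length counts every annotated isoform, so the per-kilobase level of a gene with long unused exons is understated.

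**Figure D2:**
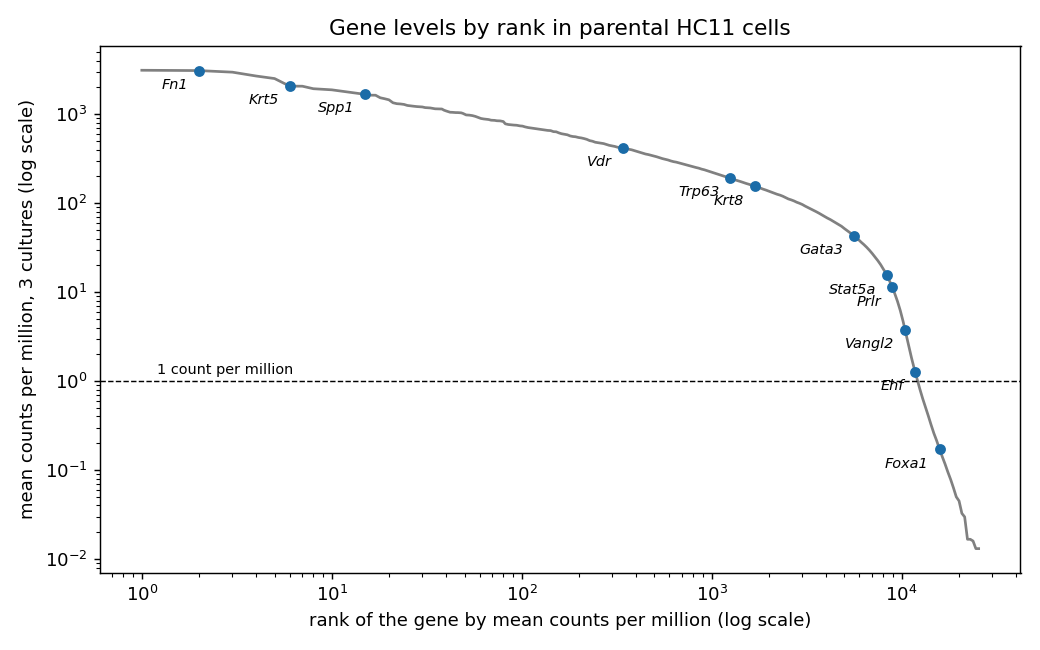
Mean CPM of the 3 parental cultures (y axis, log scale) against the rank of the gene by mean CPM (x axis, log scale), with 12 named genes marked and the level of 1 CPM as a dashed line. *Fn1* stands at rank 2, *Krt5* at 6 and *Trp63* at 1256, while *Foxa1* lies below 1 CPM, where ranks rest on few counts.

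Keratins, the intermediate filaments of epithelia, were led by the basal pair. *Krt5* (chr15:101707070-101712898 of GRCm38, gene ENSMUSG00000061527) had 869, 967 and 989 CPM per kb in cultures 1, 2 and 3. Its filament partner *Krt14* (chr11:100203162-100207548, ENSMUSG00000045545) had 789, 871 and 887, and *Krt17*, also of basal cells, had 386, 428 and 416. The ranges of *Krt5* and *Krt14* overlapped and both lay above that of *Krt17*. Within each culture *Krt5* was the higher, by ratios of 1.11 ± 0.00711 (SD, n = 3). In such bulk RNA, fewer cells of a type and less RNA per cell cannot be told apart. *Krt15*, another basal keratin, had 7, 7 and 6 counts, a few counts above the floor.

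The simple epithelial pair was present at a lower level. *Krt18* had 73.9, 90.4 and 90.0 CPM per kb and its partner *Krt8* had 66.2, 83.9 and 86.0, with overlapping ranges, *Krt18* the higher within each culture and culture 1 lowest for both. *Krt7*, of simple and ductal epithelia, had 9.83 ± 1.01 CPM per kb. The luminal keratin *Krt19* (chr11:100140810-100148665) had 0 counts in each culture, as did *Krt20* and *Krt23*. A count of 0 allows up to the floor of 3 counts, so a *Krt19* level below 0.150 CPM could have been missed in culture 1. Summed per kilobase, the 4 basal keratins exceeded *Krt7*, *Krt8*, *Krt18* and *Krt19* by ratios of 13.7, 12.3 and 12.3 in cultures 1, 2 and 3. The basal sum was the larger in every culture, by far more than the spread of the ratio. *Krt8* shares 29.7% of its 50-base windows with other annotated genes, against 12.2% for *Krt5*, so part of its reads may have been lost or placed elsewhere.

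The other keratins were low. The wound keratins *Krt16* and *Krt6a* had 18.5 ± 1.58 and 14.7 ± 2.87 CPM per kb, with overlapping ranges, and *Krt6a* shares 57.2% of its windows with other genes. *Krt80* led the keratins of stratified layers with 8.06 ± 0.644 CPM per kb, and *Krt10*, of suprabasal skin cells, had 2.29 ± 0.235. Its skin partner *Krt1* had 0 counts in each culture, as did *Krt2* and *Krt13*. In all, 12 of 21 keratins were expressed and 7 were at or under the floor, with a median of 5.28 CPM.

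**Figure D3:**
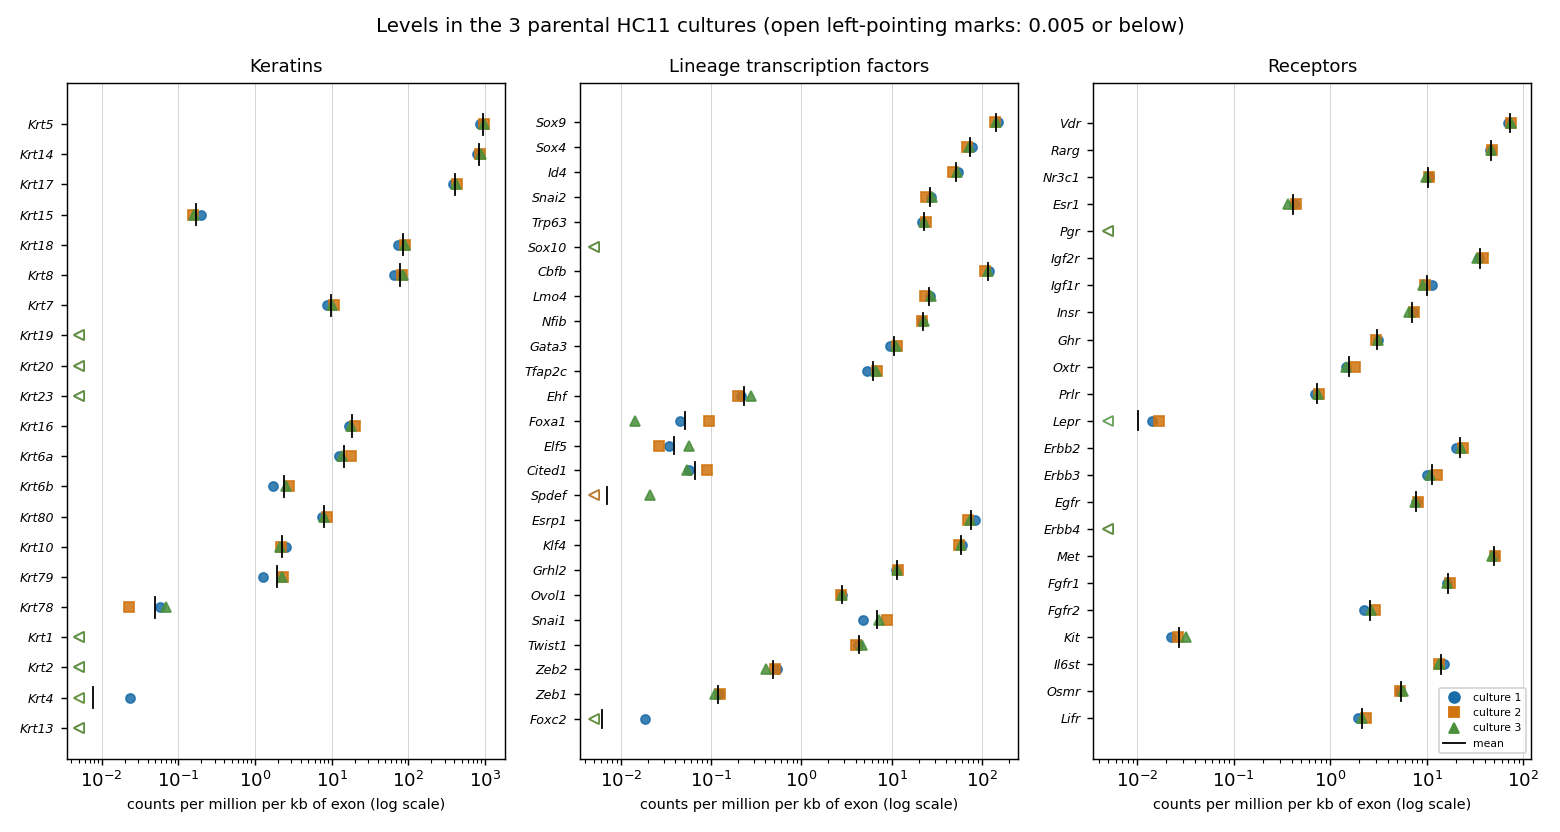
CPM per kb of exon (x axis, log scale) of keratins, lineage factors and receptors in parental cultures 1, 2 and 3, where each mark is 1 culture, the bar is the mean, and open marks at the left edge stand for values of 0.005 or below (marks at the edge overlie each other). *Krt5* and *Krt14* lie near the right edge of their panel, while *Krt19*, *Sox10*, *Pgr* and *Erbb4* lie at the left edge in every culture.

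Of the lineage factors 40 of 48 were expressed, with a median of 31.8 CPM. On the list of basal and stem cell factors, *Sox9*, a factor of mammary progenitors and not of basal cells alone, had 151, 141 and 143 CPM per kb. *Trp63*, which encodes the basal regulator p63, had 21.7, 24.0 and 22.8. *Snai2*, a repressor tied to basal identity, had 27.5, 24.3 and 28.4. These 3 genes held steady over the cultures, with *Sox9* above both others. *Sox4* and *Id4*, both transcription regulators expressed in progenitor cells, had 73.4 ± 5.15 and 51.9 ± 3.80 CPM per kb, although 54.1% of the windows of *Sox4* are shared with other genes. *Sox10*, a factor of mammary progenitors and of neural crest, had 0 counts in every culture.

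Luminal factors were uneven. *Gata3*, a master factor of luminal cells, had 9.54, 11.4 and 11.1 CPM per kb, lowest in culture 1. *Foxa1*, the pioneer factor that works with the estrogen receptor, had 3, 8 and 1 counts in cultures 1, 2 and 3, and *Elf5*, the factor of alveolar cells, had 4, 4 and 7. *Foxa1* and *Elf5* thus lay barely above the floor. *Spdef*, another luminal regulator, had 0, 0 and 1 counts. By contrast, *Cbfb*, the partner subunit of RUNX factors, had 116 ± 6.39, *Lmo4*, a LIM cofactor, 25.8 ± 2.24 and *Nfib*, of the nuclear factor I family, 22.2 ± 0.440 CPM per kb. These 3 are not confined to luminal cells. Of the luminal list 14 of 18 factors were expressed, and of the basal and stem cell list 11 of 13.

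The factors that guard the epithelial state were all expressed, 9 of 9. *Esrp1*, an epithelial splicing regulator, led with 83.3, 70.3 and 74.9 CPM per kb, ahead of *Klf4*, a Kruppel-like factor, with 58.5 ± 2.09 and *Esrp2* with 21.8 ± 0.400. *Grhl2*, which keeps up E-cadherin expression, had 11.5 ± 0.283 and *Ovol1* 2.79 ± 0.0299. Of the factors of epithelial-mesenchymal transition 6 of 8 were expressed. *Snai1*, a repressor of E-cadherin, had 4.80, 8.85 and 7.30 CPM per kb, lowest in culture 1, while *Twist1* had 4.32 ± 0.369 and *Zeb2* 0.488 ± 0.0687. *Zeb1* had 0.122, 0.126 and 0.112 CPM per kb, just above the expression limit in CPM, and *Foxc2* was at or under the floor.

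Of the nuclear receptors, which bind steroids, vitamins and related ligands, 17 of 25 were expressed (median 25.3 CPM), led by the vitamin D receptor. *Vdr* had 70.5, 75.5 and 74.9 CPM per kb and *Rarg*, the gamma retinoic acid receptor, 45.3, 47.8 and 46.9. The glucocorticoid receptor *Nr3c1*, which the lactogenic hormone mix engages, had 10.5, 10.5 and 9.85. The 3 differed from each other by more than their spread. The estrogen receptor *Esr1* was expressed at a low level of 0.420, 0.445 and 0.367 CPM per kb. The progesterone receptor *Pgr* (chr9:8899833-8968611) had 0 counts in each culture. *Pparg*, the regulator of fat cells, also had 0, and *Rarb*, *Rxrg*, *Thrb* and *Ppara* were at or under the floor.

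Hormone and cytokine receptors were expressed at uneven levels, 19 of 27 genes with a median of 23.0 CPM. The prolactin receptor *Prlr* had 0.693, 0.772 and 0.741 CPM per kb, or 10.6, 11.8 and 11.4 CPM. The growth hormone receptor *Ghr*, its close relative, named after its values were seen, had 3.12, 3.03 and 3.11 CPM per kb. *Ghr* lay above *Prlr* in every culture on this scale. *Igf1r*, the receptor of insulin-like growth factor 1, had 11.3, 9.75 and 9.13 and the insulin receptor *Insr* 7.29, 7.38 and 6.54, a ratio of 1.42 ± 0.116 (SD, n = 3). *Igf2r*, which clears IGF2 and sorts lysosomal enzymes, was the highest of this group with 35.9 ± 2.60. The oxytocin receptor *Oxtr*, of contractile cells, had 1.59 ± 0.199, while *Lepr*, *Calcr* and *Pth1r*, the receptors of leptin, calcitonin and parathyroid hormone, were at or under the floor.

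Of the cytokine receptors 13 of 17 were expressed (76.5%, against 49.9% of all protein-coding genes). *Tnfrsf1a*, a tumor necrosis factor receptor, led with 33.2 ± 1.24 CPM per kb, ahead of *Ifngr1*, of interferon gamma, with 17.5 ± 0.894 and *Il13ra1* with 15.8 ± 0.655. The shared signal chain of the interleukin 6 family, *Il6st*, had 14.0 ± 0.960, its partner *Osmr*, for oncostatin M, 5.44 ± 0.251 and *Lifr* 2.13 ± 0.206. The receptor of RANK ligand, *Tnfrsf11a*, was at or under the floor with *Csf2ra* and *Csf2rb*.

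Among receptor tyrosine kinases and their ligands 36 of 51 were expressed (median 3.88 CPM), and of the EGF receptors all but *Erbb4*. *Erbb2* had 20.1, 24.0 and 22.8 CPM per kb, *Erbb3* 10.2, 12.8 and 10.9 and *Egfr*, which binds the EGF in the medium, 7.69, 8.10 and 7.54. The ranges of the 3 did not overlap. *Erbb4*, a neuregulin receptor that acts in lactation, had 0 counts in each culture. Among the ligands, amphiregulin, *Areg*, had 41.3, 42.3 and 43.7 CPM per kb and epiregulin, *Ereg*, 42.8, 36.1 and 36.0. Their ranges overlapped, and both lay above *Tgfa* with 9.91, 11.9 and 11.7 and *Hbegf* with 6.06 ± 0.206, while *Nrg3* was at or under the floor.

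Of the other receptor tyrosine kinases, *Met*, the receptor of hepatocyte growth factor, led with 49.7, 51.2 and 47.9 CPM per kb. *Ephb4* and *Epha2*, receptors of ephrins, had 43.3 ± 5.80 and 41.0 ± 2.99, with overlapping ranges. *Fgfr1* had 16.7 ± 0.763 CPM per kb and *Fgfr2*, the receptor that mammary bud growth needs, 2.61 ± 0.328. *Kit*, a marker of luminal progenitors, had 4, 6 and 6 counts in cultures 1, 2 and 3. *Fgfr4* and *Kdr*, a receptor of vascular endothelial growth factor, had 0 counts. Their ligands were led by *Vegfa* and *Pdgfa*, with 40.2 ± 3.81 and 38.4 ± 2.76 CPM per kb and overlapping ranges, followed by *Vegfb* with 11.8 ± 0.847. *Hgf* and *Fgf2* were low at 0.228 ± 0.0391 and 0.313 ± 0.0479, and *Igf1*, *Igf2* and *Fgf10*, a stromal ligand, were at or under the floor.

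The prolactin signalling list, of kinases, STAT factors and feedback inhibitors, was nearly all expressed, 18 of 19 genes with a median of 59.5 CPM. *Stat5a* (chr11:100859351-100885169), the STAT factor most tied to alveolar development, had 1.95, 2.34 and 2.20 CPM per kb. Its neighbor and near copy *Stat5b* had 10.5, 10.6 and 11.2, and *Stat3*, a factor of cytokine signals and involution, had 15.2, 17.3 and 16.3. *Stat5a* was the lowest of the 3 in every culture, with *Stat3* at 7.76, 7.40 and 7.40 times its level in cultures 1, 2 and 3. Reads of *Stat5a* and *Stat5b* may be mixed, since 8.52% of the 50-base windows of *Stat5a* also occur in another gene. *Stat6*, of interleukin 4 signals, led the family with 27.9 ± 1.50, and *Stat4* had 0 counts.

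*Jak2*, the kinase bound to the prolactin receptor, had 7.83, 7.26 and 7.16 CPM per kb, below *Jak1* with 16.8, 18.1 and 17.4. The feedback inhibitors were led by *Socs5*, *Socs3* and *Socs4*, with 25.2 ± 2.39, 21.4 ± 2.97 and 18.8 ± 0.722 CPM per kb. The classical STAT5 targets *Socs2* and *Cish* had 7.70 ± 0.409 and 3.56 ± 0.273. Of the first 3, *Socs3* overlapped both others, while *Socs5* lay above *Socs4*, and all 8 inhibitors of this list were expressed.

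Of the milk genes 7 of 26 were expressed (median 0.0228 CPM), and the milk proteins proper were at or under the floor. *Csn2* (chr5:87692624-87699630, ENSMUSG00000063157), the gene of beta-casein, had 0, 1 and 0 counts in cultures 1, 2 and 3. *Wap* (chr11:6635482-6638637, ENSMUSG00000000381), of whey acidic protein, had 0, 0 and 1, and *Csn3*, of kappa-casein, 2, 2 and 2. *Lalba*, of alpha-lactalbumin, had 0 in each culture, as did *Csn1s1*, *Csn1s2b* and *Glycam1*, and *Csn1s2a* had 0, 0 and 1. All 8 casein and whey genes together held 0.0998, 0.118 and 0.191 CPM. These values go with the label of cells that were not differentiated.

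Other proteins of milk were expressed. *Plin2*, which coats lipid droplets, had 24.9, 26.6 and 27.6 CPM per kb, *Mfge8*, of the fat globule membrane, 12.8, 13.9 and 14.5 and *Xdh*, its redox enzyme, 8.97, 8.98 and 7.94. Their order was the same in every culture. *Btn1a1*, the butyrophilin of the same membrane, had 20, 19 and 24 counts, below the expression limit in at least 1 culture. Of the secreted defence and other milk proteins 3 of 10 were expressed, *Spp1*, described above, *Wfdc18*, a whey-acidic-domain protein, and *Lcn2*. *Wfdc18* had 4.26, 8.52 and 7.79 CPM per kb, lowest in culture 1, while *Lcn2*, the lipocalin, had 1.49 ± 0.245 CPM per kb and *Ltf*, of lactoferrin, 0, 1 and 0 counts. *Cel*, *Lpo*, *Saa1*, *Saa2*, *Pigr* and *Lyz2* were at or under the floor as well.

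Integrins, the receptors of matrix, were led by subunits that bind laminin. *Itgb4* (chr11:115974709-116008412), the beta subunit of hemidesmosomes, had 281, 312 and 291 CPM per kb, and *Itgb1*, the common beta subunit, 287, 278 and 279.7. Their ranges overlapped. *Itga3*, which pairs with beta 1 to bind laminin, had 99.8 ± 4.74, above *Itgav* with 20.4 ± 0.463 and *Itga6*, the partner of beta 4, with 18.1 ± 2.38, whose ranges overlapped. *Itga2*, a collagen receptor subunit, had 0.240 ± 0.0828, and *Itga4*, *Itga9*, *Itgal* and *Itgam*, the last 2 of leukocytes, were at or under the floor. In all 17 of 25 integrin genes were expressed, with a median of 2.18 CPM.

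Matrix genes were expressed in 48 of 75 cases (median 17.5 CPM), with most of a basement membrane but neither nidogen. The laminin chains *Lamb3* and *Lama3*, of epithelial basement membranes, had 27.6 ± 2.75 and 7.07 ± 0.159 CPM per kb, and *Lama5*, another chain of epithelia, 29.9 ± 2.61, overlapping *Lamb3*. *Col17a1*, the collagen of hemidesmosomes, had 88.0, 109.9 and 98.5 CPM per kb, ahead of the collagen IV chains *Col4a2* and *Col4a1* with 74.7 ± 5.42 and 43.0 ± 3.24. *Agrn* and *Hspg2*, both heparan sulfate proteoglycans, had 49.6 ± 1.88 and 21.1 ± 2.54. *Nid1* and *Nid2*, which link laminin to collagen IV, had 0 counts in each culture. *Lama1*, *Lama2*, *Lamc3* and *Col4a6* were at or under the floor.

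Among matrix glycoproteins, *Fn1* had 289.7, 260.2 and 245 CPM per kb and *Sparc*, a collagen-binding protein, 156, 162 and 170.0. *Tnc*, of tenascin C, had 128, 144 and 129. The 3 did not overlap, although *Fn1* was highest in culture 1, *Tnc* in culture 2 and *Sparc* in culture 3. The stromal proteoglycans *Dcn* and *Lum* had 0 counts in each culture, and *Fbn2*, *Fbln1*, *Eln* and *Vtn* were at or under the floor. Interstitial collagens were led by *Col6a1* with 109 ± 11.2 CPM per kb, then *Col11a1* with 29.1 ± 2.08 and *Col6a2* with 16.5 ± 2.89. Of the fibrillar chains of stroma, *Col1a1* had 0.822, 1.29 and 1.03 CPM per kb, *Col3a1* 0.300, 0.320 and 0.287 and *Col1a2* 0.0844, 0.126 and 0.0653. Of the TIMP inhibitors of matrix proteases, 3 of 4 lay above the highest protease. *Timp2*, *Timp1* and *Timp3* had 309.7 ± 20.3, 153 ± 7.23 and 141 ± 9.13 CPM per kb, against 33.8 ± 2.69 for the membrane protease *Mmp14* and 4.61 ± 0.521 for *Mmp2*, and *Timp1* and *Timp3* overlapped, while *Mmp3*, *Mmp7* and *Timp4* were at or under the floor.

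Genes of epithelial cell junctions were widely expressed, 29 of 40 with a median of 55.5 CPM. *Cdh1*, of E-cadherin, had 139.6, 155 and 149.6 CPM per kb, *Cdh3*, of the basal P-cadherin, 20.4, 22.5 and 22.0 and *Cdh2*, of N-cadherin, 2.87, 2.95 and 2.95. *Cdh1* was the highest cadherin in every culture, at 6.84 ± 0.0391 times *Cdh3* (SD, n = 3). The catenins *Jup* and *Ctnnb1*, which bind cadherin tails, had 116 ± 11.2 and 115 ± 8.86, with overlapping ranges. Desmosomes were represented by *Perp* with 278 ± 4.50 CPM per kb, *Pkp1* with 115 ± 7.20, *Dsg3* with 99.2 ± 2.48 and *Dsp*, the desmoplakin, with 88.3 ± 8.33, the last 2 with overlapping ranges. *Dsc3*, a desmocollin of stratified epithelia, had 0 counts in each culture.

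Tight junction genes were uneven. *Epcam*, an epithelial adhesion molecule, had 239, 245 and 253 CPM per kb, *Cldn3* 64.0, 69.2 and 71.0 and the junction adhesion molecule *F11r* 55.2, 56.8 and 57.9. The 3 ranges were apart. *Tjp1*, the scaffold ZO-1, had 32.1 ± 2.07, *Cldn4* 11.9 ± 0.980 and occludin, *Ocln*, 2.68 ± 0.239. *Cldn7* had 15, 19 and 16 counts in cultures 1, 2 and 3, below the expression limit, and *Cldn2*, *Cldn5*, *Cldn6*, *Cldn8* and *Cldn10* were at or under the floor.

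*Vangl2* (chr1:172000960-172028444, ENSMUSG00000026556), the polarity gene the series edited in its other lines, had 66, 99 and 86 counts in parental cultures 1, 2 and 3, or 3.29, 3.88 and 4.11 CPM. Per kilobase it had 0.471, 0.555 and 0.587 CPM per kb, and its paralog *Vangl1* had 7.12, 7.64 and 7.68. *Vangl1* was higher in every culture, by ratios of 15.1, 13.8 and 13.1. *Vangl2* ranked 10442 of all genes, and 0.0996% of its windows are shared with other annotated genes. Whether reads from copies entered its count was not tested. The highest polarity genes were *Scrib*, a scaffold of apicobasal polarity, with 34.5 ± 0.396 CPM per kb, *Fzd6*, a Frizzled receptor, with 31.3 and *Ptk7*, a pseudokinase, with 31.0, the last 2 with overlapping ranges. *Prickle1* and *Celsr1*, of the core pathway, had 13.8 and 0.916, 1.37 and 1.02, and *Celsr3* and *Ankrd6* were at or under the floor.

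Of the planar polarity and Wnt genes 39 of 69 were expressed, with a median of 3.57 CPM. Wnt ligands were few, 6 of 19 expressed against 12 of 16 Wnt receptors. *Wnt7b* had 14.8, 14.4 and 14.3 CPM per kb, *Wnt10a* 5.85, 8.52 and 8.40 and *Wnt4*, the ligand induced by progesterone, 0.845, 0.795 and 0.911. *Wnt5a*, a ligand of the planar polarity branch, and its receptor *Ror2* had 0 counts in each culture. The receptors *Fzd7*, *Ryk* and *Lgr4* had 53.3 ± 0.519, 35.4 ± 0.901 and 33.1 ± 1.38 CPM per kb, and the co-receptor *Lrp6* 13.3 ± 0.760. *Sfrp1*, a secreted Wnt antagonist, led the antagonists with 35.5 ± 5.08, ahead of *Sostdc1* with 15.2 ± 2.55. *Axin2*, a common target of beta-catenin, had 3, 6 and 3 counts in cultures 1, 2 and 3, and the Wnt effector *Lef1* 1, 0 and 1.

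Notch signalling genes were present on both sides of the contact, 15 of 22 with a median of 23.6 CPM. The ligands *Jag1* and *Jag2* had 45.9 ± 5.23 and 41.1 ± 2.64 CPM per kb, with overlapping ranges, and *Dll1*, a ligand of basal cells, 2.02 ± 0.183. The receptors *Notch2*, *Notch1* and *Notch3* had 15.7 ± 1.05, 10.8 ± 0.718 and 3.46 ± 0.272. Each of these 3 differed from the next by more than its spread. The target *Hes1* had 68.7, 58.4 and 52.6 CPM per kb and *Hey1* 5.86 ± 0.632, while the nuclear effector *Rbpj* had 8.04 ± 0.675. *Hes5*, *Hey2*, *Heyl*, *Mfng* and *Dll3* were at or under the floor.

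In the TGF-beta and BMP pathway 28 of 38 genes were expressed (median 32.0 CPM). Of its ligands, *Inhba*, a subunit of activins, led with 48.9, 39.9 and 42.7 CPM per kb. *Tgfb1* had 7.03 ± 0.782 CPM per kb, and *Gdf15*, *Bmp2*, *Bmp4* and *Bmp6* were at or under the floor. The receptors *Bmpr1a*, *Tgfbr1* and *Tgfbr2* had 30.9 ± 0.146, 26.9 ± 1.14 and 18.7 ± 1.14, and the signal carriers *Smad4* and *Smad3* 30.4 ± 0.385 and 8.68 ± 0.184. *Id1*, a target of BMP signals, had 71.5, 102 and 107 CPM per kb and was lowest in culture 1.

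In the Hedgehog pathway 6 of 11 genes were expressed (median 9.20 CPM), none of them a ligand. *Shh*, *Ihh* and *Dhh* had at most 3 counts in any culture. *Smo*, the signal transducer, had 36.5, 39.8 and 37.6 CPM per kb, and the receptor *Ptch1* and the factor *Gli1*, both also pathway targets, had 5.14, 5.00 and 4.51 and 5.11, 5.52 and 4.96. The ranges of *Ptch1* and *Gli1* overlapped, and *Smo* lay above both. *Hhip*, a decoy receptor, had 1.01 ± 0.0466, and the factor *Gli2* had 1, 0 and 0 counts.

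All 23 Hippo pathway genes of the list were expressed, with a median of 89.6 CPM. The co-activators *Yap1* and *Wwtr1* had 20.9, 22.3 and 21.6 and 18.8, 18.3 and 19.1 CPM per kb, their DNA-binding partners *Tead4* and *Tead1* 15.5 ± 1.22 and 11.1 ± 0.710. The target genes *Axl*, *Ccn1* and *Ankrd1* had 37.3 ± 2.57, 32.4 ± 3.87 and 26.3 ± 2.64, each overlapping the next, and *Ccn2* 12.2 ± 1.06. Of the upstream genes, *Mob1a*, *Wwc1* and *Nf2* were the highest, with 90.4 ± 1.55, 58.3 ± 2.29 and 45.7 ± 0.694, and the kinases *Lats1* and *Lats2* had 23.1 ± 0.473 and 4.72 ± 0.222.

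Cell cycle genes of the list were mostly expressed, 30 of 32 with a median of 117 CPM. *Top2a*, the topoisomerase of dividing cells, had 167, 173 and 169 CPM per kb, *Mki67*, which encodes Ki-67, 77.4, 89.6 and 79.9 and *Ccnd1*, of cyclin D1, 144, 151 and 150.3. All 3 varied little between cultures. Among the inhibitors of cyclin-dependent kinases, *Cdkn2a* led with 71.1, 75.8 and 80.8 CPM per kb, ahead of *Cdkn2c* and *Cdkn1b* with 41.1 ± 3.23 and 27.9 ± 0.847, and *Cdkn1a*, a target of p53, had 14.6 ± 0.431. *Trp53*, which encodes p53, and *Myc* had 55.0 ± 1.62 and 79.3 ± 5.27. *Cdkn1c* had 0 counts in each culture.

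Genes that report the state of a culture were mostly expressed, 71 of 83 with a median of 58.6 CPM. The integrated stress response, which raises amino acid supply, was represented by *Asns*, *Atf4* and *Psat1* with 246 ± 8.99, 237 ± 6.32 and 200.4 ± 4.58 CPM per kb, with *Asns* and *Atf4* overlapping, and all 12 members were expressed. Among the glycolysis and hypoxia genes with an exon length, *Pkm*, *Ldha* and *Pgk1* led with 381 ± 16.4, 265 ± 9.14 and 263 ± 6.42 CPM per kb, the last 2 overlapping, and 1 expressed gene without a length was not ranked. This order is uncertain, since 53.9% of the windows of *Pgk1* and 25.8% of those of *Pkm* are shared with other genes. In the cholesterol pathway *Cyp51*, *Srebf2* and *Sqle* had 44.4 ± 1.78, 35.5 ± 3.40 and 30.6 ± 1.38, the last 2 overlapping. Some of these genes differed between cultures. The early growth factor response gene *Egr1* had 8.94, 16.0 and 15.6 CPM per kb, lowest in culture 1, and the stress factor *Atf3*, named after its values were seen, 35.8, 21.4 and 24.4, highest in culture 1. Of the interferon response genes 8 of 17 were expressed, led by *B2m*, of class I antigen presentation, with 136 ± 5.23 CPM per kb, *Bst2*, of virus tethering, with 29.9 ± 2.79 and *Ifit2*, induced by interferon, with 10.5 ± 0.900. Of the same list *Isg15*, *Ifit1* and *Irf7* had 20, 30 and 24, 14, 15 and 8 and 11, 5 and 7 counts, near or below the expression limit.

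Of the markers that separate mammary compartments 26 of 40 were expressed (median 7.01 CPM). Of 10 basal cell markers 9 were expressed, summing to 6294, 7109 and 7045 CPM, with *Krt5* the most abundant per kilobase. Of 10 luminal hormone-sensing markers 6 were expressed, summing to 110.1, 117 and 116 CPM, most of it from *Areg* and *Ly6a*, and *Pgr* and *Tnfsf11*, the RANK ligand gene, were at 0. Of 10 luminal progenitor and alveolar markers 4 were expressed, summing to 76.0, 85.7 and 90.3 CPM, led by *Mfge8*. The basal sum was the largest in every culture, but the lists differ in how abundant their genes usually are. *Acta2*, the smooth muscle actin of myoepithelial cells, had 1, 5 and 5 counts in cultures 1, 2 and 3. Of the surface markers used to sort mammary stem cells, *Itgb1*, *Epcam*, *Cd24a* and *Cd44* had 282 ± 4.98, 246 ± 7.25, 142 ± 10.2 and 63.0 ± 1.06 CPM per kb.

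Of the markers of other cell types 9 of 63 were expressed (median 0.0159 CPM), and their part in the result was not tested. *Ptprc*, the common leukocyte gene, had 0, 2 and 0 counts in cultures 1, 2 and 3, the endothelial *Cdh5* 0, 0 and 1 and the adipocyte *Adipoq* 0, 1 and 0. *Dcn* of fibroblasts, *Alb* of hepatocytes, *Hbb-bs* of erythroid cells and *Pou5f1* of pluripotent cells had 0 in each culture. Of 12 immune markers 1 was expressed, the lysosomal *Cd68*, and the list summed to 5.99, 3.57 and 3.10 CPM. Of 8 endothelial markers 1 was expressed, *Pecam1*, with 1.95, 2.00 and 2.39 CPM. Fibroblast markers summed to 317, 362 and 355 CPM over 10 genes, nearly all from *Postn*, of periostin, with 300.5, 339.6 and 335 CPM, while *Dcn*, *Lum*, *Fap* and *Thy1* were at or under the floor. Among glial and neural markers the neuronal tubulin *Tubb3* had 16.3 ± 1.08 CPM, and *Sox10* was at 0. Of 8 contractile markers *Oxtr* alone was expressed, and none of 6 adipocyte, 5 pluripotent and 7 hepatocyte and blood markers was.

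Of the sex chromosome genes 1 of 6 was expressed. *Xist* had 2239, 1756 and 1645 CPM in cultures 1, 2 and 3, highest in culture 1. The Y-linked *Ddx3y*, *Uty* and *Eif2s3y* had 0 counts in each culture, and *Kdm5d* had 0, 1 and 1. The antisense partner *Tsix* had 11, 8 and 12 counts, and since its exons overlap *Xist* and the use of strand in counting is not stated, reads of the pair cannot be told apart.

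Promoter sequence was compared between expression classes as a description. RefSeq windows of GRCm38.p6, from 250 bases before to 50 after a gene start, were taken for 11467 protein-coding genes with a single window within 500 bases of the annotated start. Expressed genes had a median of 22 CG pairs in these windows (6120 genes), those between the limits 9 (1039 genes) and those at or under the floor 4 (4308 genes). The ratio of observed to expected CG pairs was 0.6 or more in 81.2% of the expressed and 17.9% of the floor genes. The letters TATAAA, on either strand, occurred in 6.06% of the expressed and 19.9% of the floor genes, against 11.8% of the 11467 windows. Over all 32851 windows, before the choice of single windows of protein-coding genes, the share was 13.6%. Of the 701 list genes, 508 had a RefSeq window of any kind, including genes with several windows or a window far from the annotated start. Of 189 list members marked as key, 79 had a window in the set compared here.

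Of 4 windows printed 5′ to 3′ with every CG pair in capitals, those of *Yap1* and *Wap* followed this pattern and those of *Krt5* and *Ror2* did not. *Krt5* (chr15:101712856-101713155, minus strand), at rank 6 by CPM, held 6 CG pairs. *Yap1* (chr9:8004547-8004846, minus strand), also expressed, held 49. *Ror2* (chr13:53286075-53286374, minus strand) had 0 counts in every culture and held 32, whereas *Wap* (chr11:6638600-6638899, minus strand), at or under the floor, held 3.
Krt5: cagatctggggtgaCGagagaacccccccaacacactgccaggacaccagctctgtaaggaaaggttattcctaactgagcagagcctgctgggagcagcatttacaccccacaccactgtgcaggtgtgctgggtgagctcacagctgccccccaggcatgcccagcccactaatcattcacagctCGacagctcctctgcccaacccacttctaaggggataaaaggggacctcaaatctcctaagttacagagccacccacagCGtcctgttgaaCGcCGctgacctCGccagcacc
Yap1: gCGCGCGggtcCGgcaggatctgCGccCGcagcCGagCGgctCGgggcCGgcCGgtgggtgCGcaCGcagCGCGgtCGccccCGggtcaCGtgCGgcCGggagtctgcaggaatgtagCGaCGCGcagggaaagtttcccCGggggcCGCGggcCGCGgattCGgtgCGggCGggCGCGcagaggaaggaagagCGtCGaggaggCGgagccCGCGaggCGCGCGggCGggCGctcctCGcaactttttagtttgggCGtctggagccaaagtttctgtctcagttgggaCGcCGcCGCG
Ror2: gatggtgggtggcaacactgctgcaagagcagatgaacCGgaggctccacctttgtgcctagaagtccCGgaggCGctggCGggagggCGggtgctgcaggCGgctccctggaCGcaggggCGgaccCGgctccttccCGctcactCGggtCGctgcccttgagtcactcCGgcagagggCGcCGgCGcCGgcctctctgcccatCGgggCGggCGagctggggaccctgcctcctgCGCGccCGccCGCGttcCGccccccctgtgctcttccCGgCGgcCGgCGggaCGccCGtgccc
Wap: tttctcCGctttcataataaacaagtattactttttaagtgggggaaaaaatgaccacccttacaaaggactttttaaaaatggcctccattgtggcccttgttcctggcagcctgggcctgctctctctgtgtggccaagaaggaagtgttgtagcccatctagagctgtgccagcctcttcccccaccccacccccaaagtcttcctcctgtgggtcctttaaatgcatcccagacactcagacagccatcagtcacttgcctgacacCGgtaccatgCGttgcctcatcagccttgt

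The letters TTCNNNGAA, the form that STAT factors are known to bind and the same on both strands, were searched in the same windows because prolactin acts through STAT5. They occurred in 7.64% of these 11467 windows, 6.62% of the expressed and 9.17% of the floor genes. Over all 32851 windows, before the choice of single windows of protein-coding genes, the share was 8.30%. The window of the beta-casein gene *Csn2* (chr5:87699376-87699675, minus strand) held 1 match, in capitals here, and that of *Wap* held 0. A match describes these letters and not binding.
Csn2: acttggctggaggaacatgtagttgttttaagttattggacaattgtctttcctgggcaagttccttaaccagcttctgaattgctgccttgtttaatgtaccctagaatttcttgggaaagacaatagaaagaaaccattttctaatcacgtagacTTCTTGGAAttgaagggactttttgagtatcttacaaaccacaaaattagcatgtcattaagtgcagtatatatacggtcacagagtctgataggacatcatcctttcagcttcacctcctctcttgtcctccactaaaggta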

How the data were processed

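Poly-A RNA of 9 cultures was sequenced by the authors with paired reads of 50 cycles after an NEBNext Ultra library kit. Per the labels and methods, reads were filtered with fastp and aligned to GRCm38 with HISAT2, and the deposited raw counts per gene were made with featureCounts over GENCODE exons (release v23 in the methods), with no versions given in the sources used here. Strand use and the handling of reads with several alignments are not given either. The labels say that lysates were frozen and the methods say that they were not. Columns were matched to samples by title, and the 3 *WT* columns were used.

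Counts were divided by the column total and, for levels between genes, by the union of exons in GENCODE M21 (GRCm38), which gave a length for 53462 names. The other 1766 names, 111 of them expressed, have no length or gene class. Of these, 107 are shared by several annotated genes and the rest are not in M21, which differs from the release in the methods. The biological coefficient of variation came from edgeR 4.0.16 in R 4.3.3 with an intercept and genes of at least 10 counts in total. Python 3.11.15 with pandas 2.3.3 was used for the rest. On counts simulated with the same coefficient of 0.05 for every gene, the edgeR estimate was 0.0503. That simulation held no culture that stood apart, so it does not show how the estimate behaves in such a case. No group was compared and no test of a difference was run. Alternatives were TMM and DESeq2 1.42.0 library sizes, other thresholds, thinning to the smallest library, and leaving out each culture.

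Genes were named by rule: key members of 20 lists, the 3 highest per kb of each subgroup and its members at or under the floor, the 20 highest genes, the 3 highest ribosomal and mitochondrial genes, the 10 of widest spread, and 4 reference genes. The sum of histone genes, the choice of printed promoters and the naming of *Ghr* and *Atf3* were made after values were seen. Members and lists were chosen with earlier results of these data known. Of 699 list genes with transcript windows, 89 share over 10% of their 50-base windows with another gene, and their levels are uncertain. A gene at the floor that shares windows may have lost reads, such as *Igf2* or *Itgam*. The 3 cultures limit the SDs, which rest on n = 3.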

Additional observations from a re-analysis of the deposited data

How the results depend on the processing

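The number of genes expressed, 11810, stayed within 1.5 times under every alternative tried, from 10744 at 1 CPM per kb in every culture to 12800 at a threshold of 0.5 CPM. The number at or under the floor lay between 29767 (0 counts) and 41094 (10 counts or fewer), and the list genes expressed between 414 and 486. The share of counts in the 100 highest genes was 16.1% against 11.7% when ranked and shared by CPM per kb, and 11.6% to 11.8% with 1 culture left out in turn. The biological coefficient of variation was 0.0378 to 0.0854 with 1 culture left out in turn, lowest without culture 1, against 0.0696 with all, and the cause was not tested. Leaving out the 8 genes over 2-fold apart, an alternative chosen after seeing the data, gave a coefficient of 0.0582. The mitochondrial alternative equalled the main values, since those genes were listed at 0. For the 174 list members marked as key and not at 0, levels were recomputed, which was not done for other genes. These key levels, at a mean of 1 CPM or more, moved by factors of 0.814 to 1.17 under TMM, other totals or a left-out culture. No paired analysis was possible because no groups were compared and no result comes from a test. Below about 1 CPM the counts are too few to order genes. Across exon lengths, the median log2 ratio to the mean of the cultures ran from -0.05 in the shortest sixth of genes to 0.02 in the longest in culture 1, from -0.01 to 0.02 in culture 2 and from 0.06 to -0.04 in culture 3, so ratios of short to long genes are less certain than levels of single genes.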
